A study of Mus musculus with 8 samples.

Results

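The genes described here encode collagens and the proteins that fibroblasts and other mesenchymal cells assemble around them. They are 35 named genes, and a probe belonged to them where its RefSeq accession led to one of these symbols. All 35 genes were found, on 46 of the 55577 probes examined, and 33 of them were among the 20211 genes tested. Postn, which encodes periostin, and Pdgfrb, the beta receptor of platelet-derived growth factor, were too dim for testing and are given as values.

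The study exposed primary microglia of C57BL/6 mice for 3 h to one of 4 conditions. The control was PBS alone. The carrier control was the recombinant Fc portion of an antibody at 20 µg/ml. The other conditions were Ecrg4(71-132) and Ecrg4(133-148), stretches of the secreted precursor protein Ecrg4, each fused to Fc and used at the same dose. Each condition had 2 one-colour arrays, which the titles number as sets, here set 1 and set 2, so that each set held all 4 conditions on 1 array each. The labels state neither the age of the mice nor the purity of the cultures nor whether the sets were separate cultures. The 4 arrays of a set may therefore share a culture, and p-values measure only the spread between these arrays.

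Collagens are triple-helical proteins that form fibrils, networks and beaded filaments outside cells. They are hydroxylated and folded in the endoplasmic reticulum, and the lysyl oxidases crosslink them after secretion. In the brain, perivascular and meningeal fibroblasts are a main source of type I and type III collagen, vessels and their mural cells are wrapped in basement membranes of type IV collagen, laminin and nidogen, and microglia are macrophages that make some matrix glycoproteins themselves. Cultures of primary microglia are prepared from mixed brain cells, so RNA of these other cells can be present. In such bulk samples fewer cells of a type and less RNA per cell cannot be told apart.

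The arrays each held 24214 to 29439 probes well above background, and no spot was saturated. All values are log2 signals on which the 75th percentile of each array is 0. A level cannot be compared between probes, so only differences of the same gene between arrays are given. The 4 arrays of each set lay in a row of their own on 1 slide, so set and row cannot be told apart. The 13 microglia markers were well above background on all 4 arrays of set 1, 11 of them on all 4 of set 2, and their summed signal ran from 686 to 729 in set 1 and from 643 to 748 in set 2. Csf1r, the receptor of the colony-stimulating factor on which microglia depend, had a mean of 8.08 ± 0.06 in set 1 and 8.07 ± 0.12 in set 2 (SD, n = 4 each). Cx3cr1, the fractalkine receptor of microglia, had 4.68 ± 0.06 in set 1 and -1.95 ± 1.09 in set 2. Of the 13, 8 were lower and 4 higher in set 2 by the test described with the sets. The higher ones were Ptprc (0.80), Itgam (0.66), Siglech (0.51) and Trem2 (0.37). Among the lower ones were Cx3cr1 (-6.62), Olfml3 (-4.40, well above background on 3 of 4 set 2 arrays), Fcrls (-4.04), Tmem119 (-2.28, on 1 of 4), P2ry12 (-1.70), Aif1 (-1.70) and Gpr34 (-0.49), each as a log2 difference of set 2 from set 1. Most markers of the labelled cell type were thus detected in both sets. Several that define microglia were lower in set 2, and others, Siglech and Trem2 among them, were higher.

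The promoters of 3 members are shown because these genes stand for the 3 patterns described further on: Col5a3, higher with Ecrg4(71-132) in both sets, Nid1, higher in set 2, and Col1a2, far lower in set 2. Each is the stretch of 250 bases before the annotated start, from RefSeq on GRCm38.p6, printed 5′ to 3′ on the strand of the gene. Col5a3 is on the minus strand at chr9:20815068-20815317, Nid1 on the plus strand at chr13:13437352-13437601 and Col1a2 on the plus strand at chr6:4505368-4505617. Capitals mark matches to CCAAT on either strand, and no other motif searched was found in these windows.
Col5a3: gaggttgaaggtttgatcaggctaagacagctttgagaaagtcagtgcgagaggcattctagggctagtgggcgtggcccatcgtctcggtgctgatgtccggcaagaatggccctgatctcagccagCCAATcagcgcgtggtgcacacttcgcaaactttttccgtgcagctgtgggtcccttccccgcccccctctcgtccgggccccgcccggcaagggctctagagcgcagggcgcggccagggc
Nid1: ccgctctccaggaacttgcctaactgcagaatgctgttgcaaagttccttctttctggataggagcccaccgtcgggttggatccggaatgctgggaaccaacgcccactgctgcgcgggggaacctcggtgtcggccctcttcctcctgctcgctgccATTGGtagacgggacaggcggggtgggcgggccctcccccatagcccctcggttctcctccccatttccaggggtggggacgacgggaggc
Col1a2: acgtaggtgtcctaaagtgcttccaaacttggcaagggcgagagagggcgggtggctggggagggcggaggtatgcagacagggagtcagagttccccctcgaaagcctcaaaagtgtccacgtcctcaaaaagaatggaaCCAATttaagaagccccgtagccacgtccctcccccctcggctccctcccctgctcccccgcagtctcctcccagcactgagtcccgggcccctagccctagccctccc

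The matched letters lie 122 to 118 bases before the start of Col5a3 and 109 to 105 bases before that of Col1a2. In Nid1 they lie on the opposite strand, 91 to 87 bases before the start. The search covered the CCAAT box, the TATA box written as TATAAA, the AP-1 motif written as TGANTCA and the NF-kB motif, on both strands. A window was given for 23 of the 35 genes, and 8 of them held the CCAAT box, 4 the TATA box, 1 the AP-1 motif and 4 the NF-kB motif. Of 32851 RefSeq windows of the same length, 33.8% held the CCAAT box, 12.4% the TATA box, 6.75% the AP-1 motif and 7.25% the NF-kB motif. The members with the motifs were few, and a match describes letters, not a bound site.

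Most of the matrix genes were lower in set 2 than in set 1. Of the 20 members that were well above background on both arrays of a treatment, 14 were lower in set 2 (limma with treatment as a term, Benjamini-Hochberg adjustment over all genes), as were 22.8% of the 19120 genes kept by that rule. In the other direction 1 of the 20 passed, Nid1, as did 36.4% of those genes. The test itself also took in genes well above background on all 4 arrays of a set. That added 13 members, each well above background throughout set 1 and on no set 2 array. Their direction was fixed by this set rule, and they are no support. They were Col3a1, Col11a1, Col4a1, Col8a1, Col6a1, Col6a2, Col12a1, Lum, Tnc, Thbs2, Fbn1, Fbln1 and Loxl1. Counts by role below include these members. With these 13, 27 of 33 were lower and 1 higher, where 26.1% and 34.5% of all genes were. The sets differed widely in general, with 60.5% of all genes called in either direction.

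To set arrays against each other where a probe was dim, its signal on a dim array was raised to the lowest signal well above background on that array. Counted so, 25 of the 33 members had every set 1 array above every set 2 array, as 23.3% of all genes did, and Nid1 alone lay above in set 2 without overlap, as 31.6% of all genes did. Within each of the 4 treatments, 17 members were over 2-fold lower in set 2, against 6.07% of all genes, and 7 were over 8-fold lower, against 0.826%. These 7 were Col1a1, Col1a2, Col3a1, Col4a1, Col6a1, Dcn and Sparc. All of these counts of lower members again include some kept by the set rule alone, whose direction was fixed. Among the 7 these were Col3a1, Col4a1 and Col6a1, so part of the excess over all genes is built in. As measured, the median difference of the 33 members was -3.17, and that of all genes was 0.09.

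**Figure D1:**
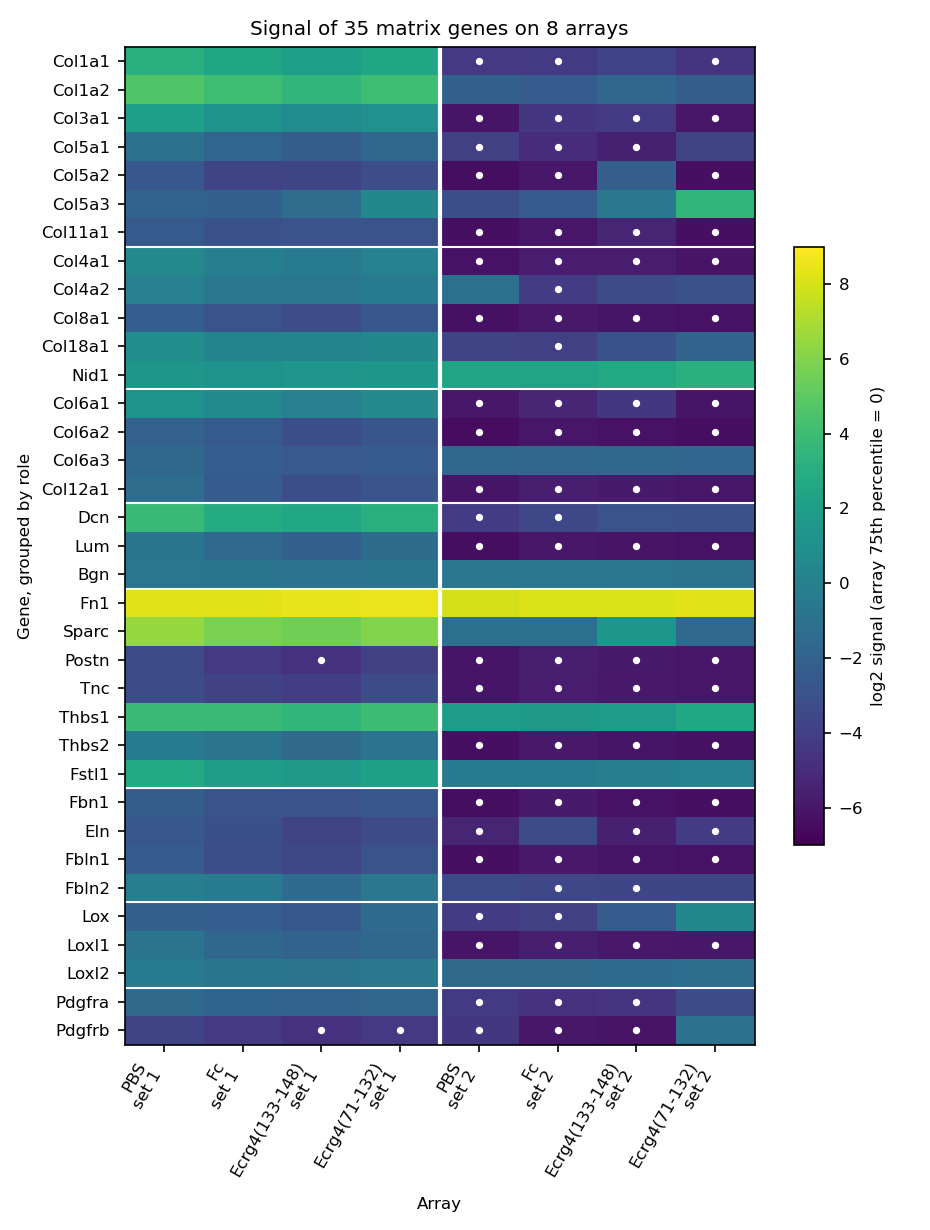
Log2 signal of the 35 matrix genes (vertical, grouped by role) on the 8 arrays (horizontal, set 1 left of the white line and set 2 right of it), by colour, with white dots where the probe was not well above background. In set 1, 33 genes were well above background on all 4 arrays, and in set 2, 14 genes were not so on any array, while Nid1, Col6a3, Bgn, Fn1 and Loxl2 kept similar colours in both sets.

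The size of the median rests on how genes entered the test and on dim signals. For the 20 members kept by the treatment rule the median difference was -2.14. In set 2, 14 of the 35 genes were not well above background on any array, so their difference is a bound, written "at least". With those of the 33 at their bounds, the median was -1.91, and with normexp background correction, which compresses dim signals, the median of the measured differences was -1.24.

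Of the 7 fibrillar collagens, 5 were lower in set 2, with Col3a1 and Col11a1 kept by the set rule alone. Col1a2 encodes the second chain of type I collagen, the main collagen of fibroblasts. In set 1 its signal was 4.63 with PBS, 4.01 with Fc, 4.04 with Ecrg4(71-132) and 3.53 with Ecrg4(133-148), and in set 2, in the same order, -2.04, -2.33, -2.26 and -1.70. All 4 arrays of set 1 were far above all 4 of set 2, and the probe was well above background on all 8. The difference was -6.14 (SE 0.26, adjusted p = 0.000188 by limma), a 70.3-fold lower signal in set 2.

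Col1a1, which encodes the partner chain, read 3.03, 2.46, 2.40 and 2.02 on the set 1 arrays, in the same order of treatments, and -4.33, -4.29, -4.51 and -3.79 on those of set 2. It was well above background on 1 of the 4 set 2 arrays. The sets did not overlap, and the measured difference was -6.71 (SE 0.27, adjusted p = 0.000171). Col3a1, the type III chain that co-assembles with type I fibrils, was 1.26 ± 0.52 in set 1 (SD, n = 4) and not well above background in set 2, at least 37.3-fold lower. Both type I chains thus shared the pattern. Col3a1 was kept by the set rule alone, so its direction was fixed and it adds no support.

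The minor fibrillar chains set the diameter of type I and cartilage-type fibrils. Col5a1 was lower in set 2 by a difference of -2.90 (SE 0.24, adjusted p = 0.000834), and Col11a1 was at least 2.18-fold lower. Col5a2 had a difference of -1.91 (SE 0.96, adjusted p = 0.149) and did not pass. Its set 2 signal was -6.41, -6.00 and -6.35 with PBS, Fc and Ecrg4(71-132) but -2.15 with Ecrg4(133-148), above all 4 set 1 arrays. Col5a3, the third type V chain, had no set difference that passed (0.51, SE 0.77, adjusted p = 0.595) and is described with the treatments.

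Among the 5 genes of networks and basement membranes, 4 were lower in set 2 and 1 was higher. Of the lower ones, Col4a1 and Col8a1 were kept by the set rule alone. Col4a1, a chain of the type IV network under endothelium, lay between -0.36 and 0.56 in set 1 and was not well above background in set 2, at least 16-fold lower. Col4a2, its partner, was well above background on 3 set 2 arrays and had a difference of -2.47 (SE 0.42, adjusted p = 0.00758). Its set 2 arrays spread widely, with -1.08 for PBS and -4.13 to -3.06 for the others. Col18a1, the precursor of endostatin, was 0.93, 0.24, 0.47 and 0.19 in set 1 and -3.71, -3.98, -1.88 and -2.99 in set 2, and all set 1 arrays were higher. The difference was -3.60 (SE 0.42, adjusted p = 0.00235). Col8a1, a short-chain network collagen of vessels, was at least 2.3-fold lower.

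Nid1 encodes nidogen-1, the linker between laminin and type IV collagen, and it went the other way. Its signal was 1.49, 1.17, 1.47 and 1.33 in set 1 and 2.33, 2.34, 3.16 and 2.71 in set 2. The sets did not overlap, with set 2 higher by 1.27 (SE 0.15, adjusted p = 0.0024), or 2.41-fold. Its other 2 probes, each well above background on 2 set 2 arrays, were also higher in set 2 within every treatment.

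Of the 4 beaded-filament and fibril-associated collagens, 3 were lower in set 2. All 3 were kept by the set rule alone, so their direction was fixed and the count is no support. Col6a1, a chain of the type VI filaments that anchor cells to basement membranes, was 0.58 ± 0.49 in set 1 and at least 23.3-fold lower in set 2. Col6a2 was at least 2.57-fold and Col12a1, a collagen on the surface of fibrils, at least 2.94-fold lower. The direction of Col6a1 and Col6a2 was fixed, so no contrast between them and Col6a3, the largest type VI chain, is drawn. Col6a3 was well above background on all 8 arrays. Its signal was -1.59, -2.19, -2.38 and -2.52 in set 1 and -1.62, -1.70, -1.80 and -1.60 in set 2, so that only PBS of set 1 reached the set 2 values. The difference was 0.49 (SE 0.17) and missed the threshold (adjusted p = 0.0561), although it passed with normexp background correction and without the PBS array of either set.

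Of the small leucine-rich proteoglycans, which coat collagen fibrils, 2 of 3 were lower in set 2, with Lum kept by the set rule alone. Dcn, which encodes decorin, was 3.79, 2.83, 3.10 and 2.59 in set 1 and -4.19, -3.53, -3.06 and -2.92 in set 2, where 2 arrays were well above background. All set 1 arrays were far higher, by a difference of -6.50 for set 2 (SE 0.43, adjusted p = 0.000495). Lum, which encodes lumican, was at least 5.72-fold lower. Bgn, which encodes biglycan and is also made by macrophages, lay between -0.93 and -0.69 in set 1 and between -0.87 and -0.57 in set 2. These ranges overlapped, and the difference of 0.07 (SE 0.08, adjusted p = 0.447) had no stable sign, as it was -0.00 with arrays scaled to their medians.

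All 6 tested adhesive and matricellular glycoproteins were lower in set 2, by very different amounts. Thbs2 and Tnc were kept by the set rule alone. Sparc, a collagen-binding protein of fibroblasts, endothelium and glia, was 6.46, 5.81, 6.03 and 5.50 in set 1 and -1.16, -1.14, -1.55 and 1.44 in set 2. The set 2 array with Ecrg4(133-148) stood above its neighbours but still below all of set 1. The difference was -6.55 (SE 0.69, adjusted p = 0.00169). Another Sparc probe gave a difference of -6.31, while the remaining one lay between -2.14 and -1.32 on all arrays, with a difference of 0.47. The probes thus disagreed.

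Fn1, which encodes fibronectin, a glycoprotein that macrophages also secrete, was 8.30, 8.31, 8.51 and 8.41 in set 1 and 7.99, 8.13, 8.25 and 8.17 in set 2. The sets did not overlap, but the difference of -0.25 (SE 0.05, adjusted p = 0.0102) was small. Thbs1, which encodes thrombospondin-1, an activator of latent TGF-beta, was 3.92, 3.89, 3.94 and 3.54 in set 1 and 1.85, 1.67, 2.57 and 1.80 in set 2. The difference was -1.85 (SE 0.16, adjusted p = 0.000985), and all set 1 arrays were higher. Thbs2, its paralog, was at least 8.43-fold lower in set 2. Fstl1, which encodes a secreted relative of follistatin, had a difference of -2.37 (SE 0.24, adjusted p = 0.0016), and Tnc, which encodes tenascin-C, was at least 1.22-fold lower. Postn was well above background on 3 arrays of set 1, between -4.64 and -3.34 there, and on none of set 2.

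The 4 elastic fibre genes were lower in set 2, with Fbn1 and Fbln1 kept by the set rule alone. Fbn1, which encodes fibrillin-1 of the microfibrils, was at least 2.45-fold lower, and Fbln1 at least 1.97-fold. Fbln2, another fibulin, had a difference of -2.91 (SE 0.19, adjusted p = 0.000459). Eln, which encodes elastin, was close to the threshold (-1.40, SE 0.44, adjusted p = 0.0482), its sets overlapped, and it did not pass without the PBS, the Ecrg4(71-132) or the Ecrg4(133-148) array of either set.

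Of the lysyl oxidases, Loxl1 was at least 5.52-fold lower in set 2. Loxl2 had a difference of -0.72 (SE 0.10, adjusted p = 0.0037) on its brightest probe, and the other 2 probes gave -3.49 and -2.90, so the size depends on the probe. Lox did not pass (-0.48, SE 0.73, adjusted p = 0.596) and is described with the treatments. Pdgfra, the alpha receptor of platelet-derived growth factor and a fibroblast and oligodendrocyte progenitor marker, had a difference of -2.46 (SE 0.24, adjusted p = 0.00144) and was well above background on 1 set 2 array.

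**Figure D2:**
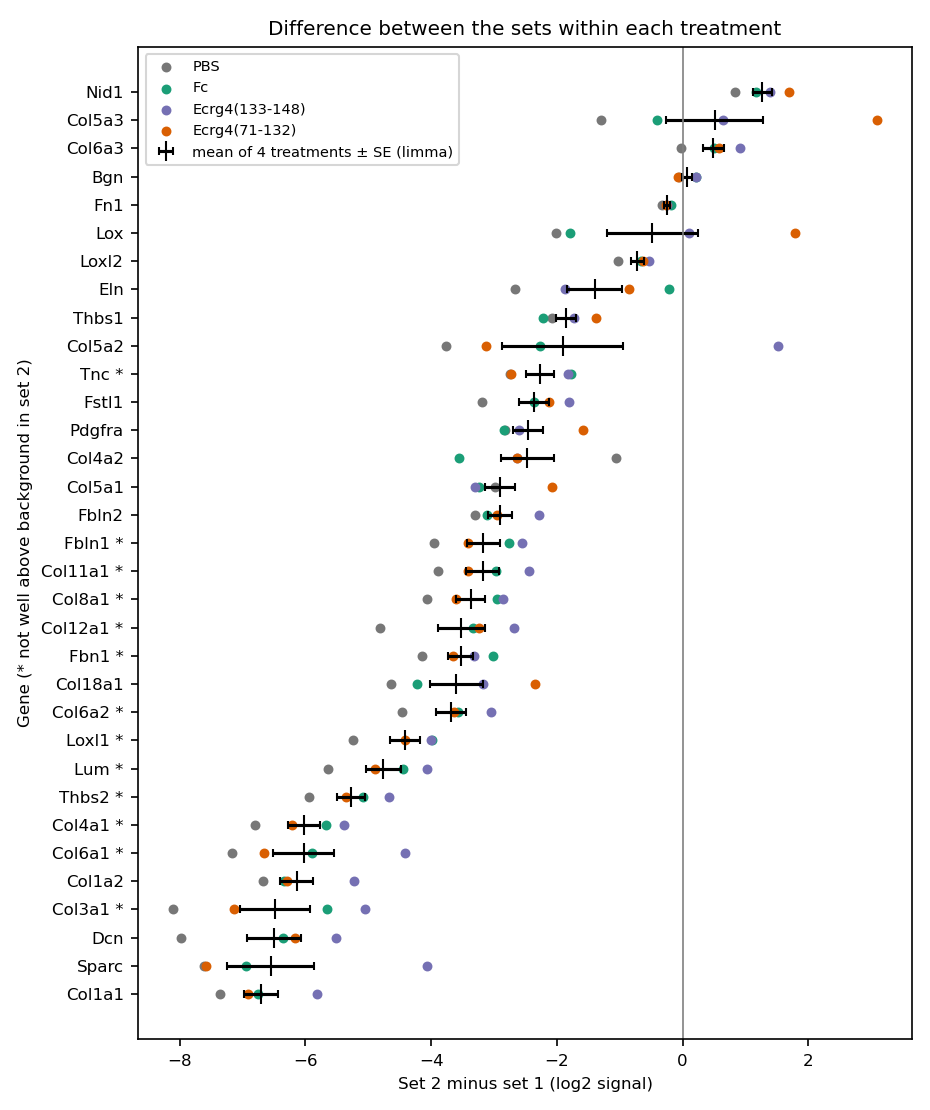
Set 2 minus set 1 in log2 signal (horizontal) for the 33 tested matrix genes (vertical), with 1 point per treatment and the mean of the 4 treatments with its SE from limma. A star marks genes not well above background on any set 2 array, and the points run from -8.10 for Col3a1 with PBS to 3.09 for Col5a3 with Ecrg4(71-132), with Nid1 the only gene called above 0.

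Genes around the matrix genes were counted in the same way, beside 26.1% lower and 34.5% higher among all genes. A tested gene with no array of a set well above background was kept through the other set alone, so its direction was fixed. Of 20 tested genes of collagen processing, 10 were lower and 5 higher in set 2. Serpinh1, which encodes the collagen chaperone HSP47, was at least 28.8-fold lower in set 2. P4hb and Ppib, enzymes that also fold other proteins, had differences of 0.06 (SE 0.05, adjusted p = 0.304) and 0.04 (SE 0.05, adjusted p = 0.435). Serpinh1 was kept through set 1 alone, so no contrast between it and these general enzymes is drawn.

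Of 12 other collagens tested, 5 were lower and 3 higher in set 2. Col14a1, a fibril-associated collagen that was well above background on 2 of the 4 set 2 arrays, had a measured difference of -4.94 (SE 0.32, adjusted p = 0.000463), and Col7a1, the anchoring fibril collagen, had a difference of 0.02 (SE 0.17, adjusted p = 0.927). Col24a1, a minor fibrillar collagen, was not well above background on any set 1 array and was so on all 4 of set 2, with a mean of -0.26 ± 0.17 there. It was at least 23.8-fold higher in set 2. As it was kept through set 2 alone, its direction was fixed and it is no support.

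Of 10 laminins tested, which build basement membranes with nidogen, 8 were lower and 1 higher in set 2. Several of the lower ones, Lamb1 among them, were kept through set 1 alone. Lamb1 was at least 15.7-fold lower, and Lamc1 had a difference of -1.39 (SE 0.05, adjusted p = 0.000144). Nid1 therefore ran opposite to Lamb2, Lamc1 and Col4a2, whose direction the set rule did not fix. Of 16 genes of the TGF-beta pathway, a main inducer of collagen genes, 8 were lower and 3 higher. Tgfb3 was at least 8.05-fold lower, Tgfbr2 was higher by 1.46 (SE 0.10, adjusted p = 0.000609), and the target Tgfbi had a difference of -0.63 (SE 0.08, adjusted p = 0.00247).

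Markers of other cell types differed between the sets together with the matrix genes, and their part in the result was not tested. The 22 fibroblast markers outside the matrix genes had a summed signal of 9.23 to 15.9 in set 1 and 2.35 to 2.84 in set 2. Of these, 14 were tested, and 13 were lower and 1 higher in set 2, where 26.1% and 34.5% of all genes were. The higher one was Aldh1a2, well above background on every array and among the brightest of the list. It was -0.56 ± 0.26 in set 1 and 0.96 ± 0.15 in set 2. Its difference was 1.52 (SE 0.17, adjusted p = 0.00207 by limma), and the summed set 2 signal includes it. Not well above background on any set 2 array were 17 of the 22, among them Thy1, Prrx1 and Twist1. Those of the 17 that were tested were kept through set 1 alone, so their direction was fixed and they are no support. Mgp, which encodes matrix Gla protein, was at least 45-fold lower in set 2. The 11 smooth muscle and pericyte markers summed to 23.6 to 39.2 in set 1 and 2.79 to 3.14 in set 2. Of 6 tested, 5 were lower and 1 higher, and Cnn1, which encodes the smooth muscle protein calponin, was at least 56.8-fold lower. Cnn1 too was kept through set 1 alone. In set 1 Myh11, Des, Rgs5, Kcnj8 and Abcc9, defining genes of these cells, were not well above background either.

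Other lists were mixed. Of 10 tested astrocyte markers 7 were lower and 2 higher in set 2, and their summed signal was higher there, 72.6 to 76.8 against 30.3 to 44.2. Aldoc, a glycolytic enzyme of astrocytes, was 4.38 ± 0.14 in set 1 and 5.93 ± 0.03 in set 2, while Gja1, Sox9 and Gjb6 were not well above background in set 2. Gfap, the intermediate filament of astrocytes, was well above background on 1 of the 4 set 2 arrays, with a measured difference of -7.02 (SE 0.68, adjusted p = 0.00133). The 8 endothelial markers summed to 7.56 to 8.18 in set 1 and 12.6 to 13.7 in set 2, and the 8 oligodendrocyte lineage markers to 39.7 to 42.1 and 94.1 to 113. 

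**Figure D3:**
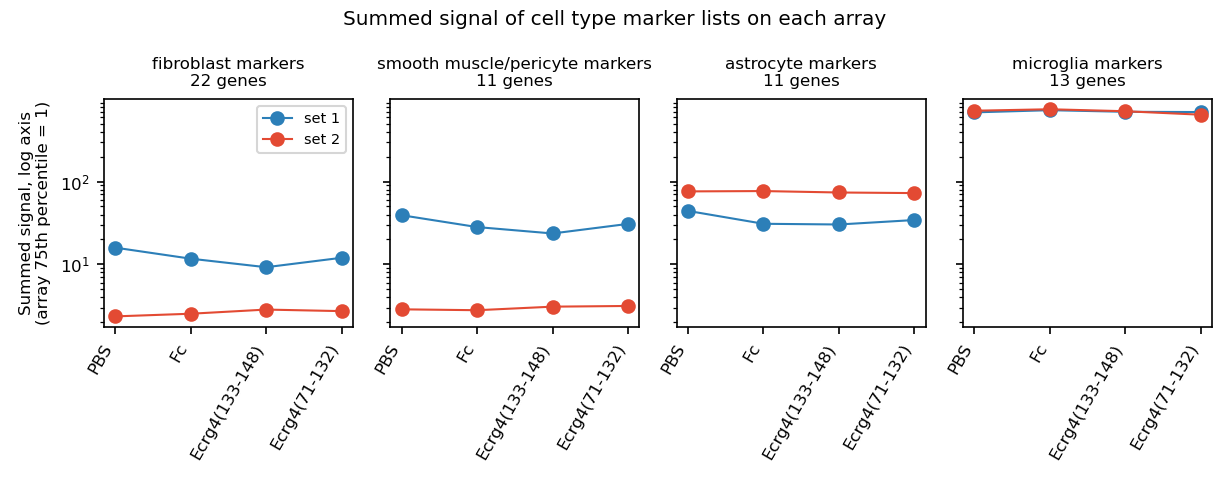
Summed signal of 4 marker lists (vertical, log axis, with the array's 75th percentile at 1) by treatment (horizontal), with set 1 in blue and set 2 in red. The fibroblast and the smooth muscle and pericyte lists are lower in set 2, the astrocyte list is higher and the microglia list overlaps.

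Within set 1 the matrix genes shared an order of the treatments. Signal was highest with PBS in 28 of the 33 genes, against 19% of all genes. It was highest with PBS and lowest with Ecrg4(133-148) in 25, against 6.88% of all genes. With Fc 32 members were below PBS, and 32.6% of all genes were. The median member difference from PBS was -0.58 with Fc and -1.0 with Ecrg4(133-148), while over all genes it was 0.05 and 0.06. Under 5 other scalings or probe rules, the first count ran from 25 to 29 and the second from 23 to 26. With 1 array per treatment in a set there is no test of this order.

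The order was not limited to the matrix genes. PBS was also the highest array of set 1 for 11 of 14 tested fibroblast markers outside them, 4 of 6 smooth muscle and pericyte markers, 9 of 10 astrocyte markers and 3 of 13 microglia markers. The summed fibroblast signal in set 1 was 15.9 with PBS, 11.7 with Fc, 12 with Ecrg4(71-132) and 9.23 with Ecrg4(133-148), the same order at its ends as in the matrix genes. How far this moves the treatment differences of the matrix genes was not tested. In set 2 the Ecrg4(71-132) array was the highest in 10 of the 33 members, and 32.9% of all genes had that order.

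Ecrg4(71-132) was compared with Fc, its carrier control. No member and no gene passed (limma, adjusted p under 0.05, 0% of genes), and 614 genes, or 3.04%, had an unadjusted p under 0.05, among them the members Col5a3 and Lox. The median of the members was -0.02, as was that of all genes. In that test the spread includes the difference between the sets. With the set as a replicate block no gene passed either, although 3488 had an unadjusted p under 0.05. Over 2-fold higher within both sets was 1 member, Col5a3, and 0.445% of all genes.

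Col5a3 encodes the alpha3 chain of type V collagen, a minor component of fibrils. Its signal was -1.89 with PBS, -2.01 with Fc, 0.39 with Ecrg4(71-132) and -1.26 with Ecrg4(133-148) in set 1, and -3.18, -2.41, 3.48 and -0.62 in set 2. In both sets Ecrg4(71-132) was the highest and Ecrg4(133-148) came next, and the probe was well above background on all 8 arrays. Against Fc, Ecrg4(71-132) was higher by 2.40 in set 1, or 5.26-fold, and by 5.89 in set 2, or 59.3-fold. The mean was 4.14 (SE 1.07, adjusted p = 1 by limma), and with the set as a block the 95% interval was 1.25 to 7.04 (adjusted p = 0.245). With normexp background correction the differences were 1.96 and 5.02.

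Other collagen and proteoglycan genes were set beside it in the same comparison. Col1a2 differed between Ecrg4(71-132) and Fc by 0.03 in set 1 and 0.07 in set 2, with a 95% interval of -0.92 to 1.01 in the fit with the block. Col1a1 differed by -0.06 and -0.22, Lum by 0.19 and -0.25, Sparc by 0.22 and -0.41, and Dcn by 0.27 and 0.47. Col3a1 differed by -0.04 in set 1 and by -1.52 in set 2, and Col6a1 by -0.04 and -0.80. In set 2 Col3a1, Col6a1 and Lum were not well above background on any array, Col1a1 was not on either of these arrays and Dcn was not on the Fc array, so these set 2 values rest on dim signals. Within the type V family, Col5a1 and Col5a2 were well above background on 1 set 2 array each, so their responses there rest on dim signals. In set 2 Col1a1 and Col3a1 were near or below background, while Col1a2 was well above it on all 4 arrays. Col5a3 with Ecrg4(71-132) was at its highest in set 2, and which cells it came from was not tested.

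**Figure D4:**
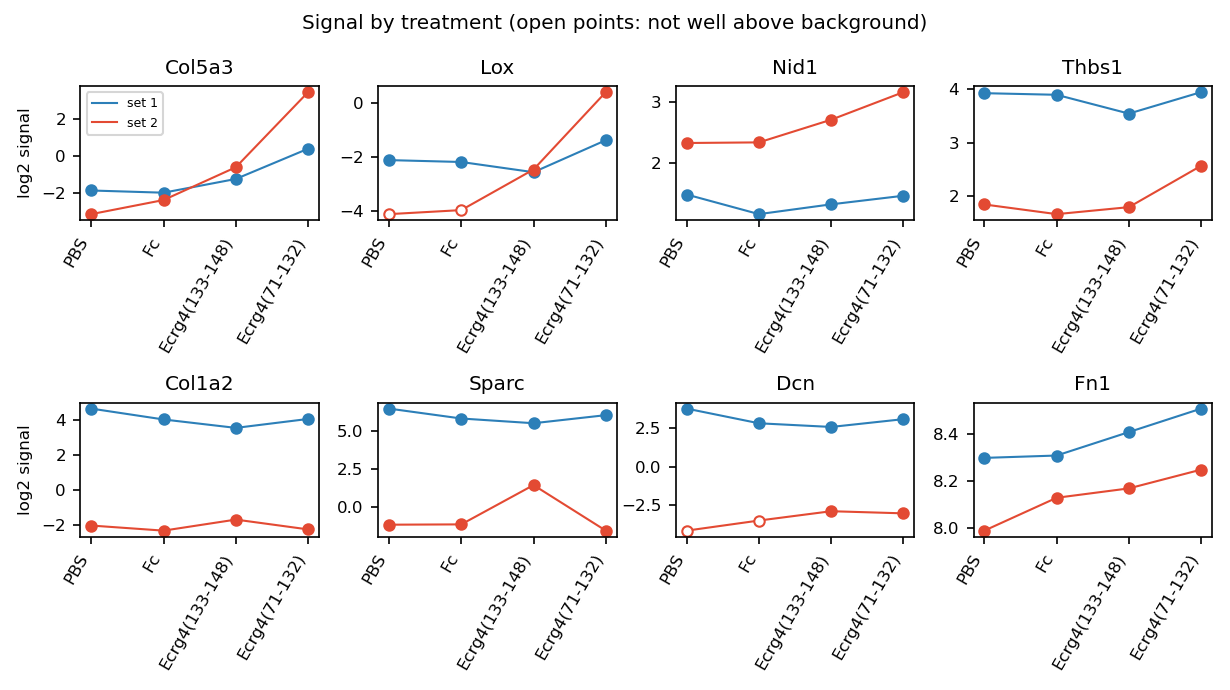
Log2 signal (vertical, own scale in each panel) of 8 matrix genes by treatment (horizontal), set 1 in blue and set 2 in red, with open points where the probe was not well above background. Col5a3 and Lox reach their highest signal with Ecrg4(71-132) in both sets, while Col1a2, Sparc and Dcn are split by set.

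Lox, which encodes the founding lysyl oxidase and is known to respond to hypoxia and TGF-beta, came next. Its signal was -2.12, -2.19, -1.38 and -2.57 in set 1, in the order PBS, Fc, Ecrg4(71-132) and Ecrg4(133-148), and -4.13, -3.98, 0.41 and -2.47 in set 2. Ecrg4(71-132) was the highest in both sets, by 0.81 over Fc in set 1 and 4.39 in set 2. In set 2 the PBS and Fc arrays were not well above background, so the second value is a difference from dim signals. The mean was 2.60 (SE 1.01, adjusted p = 1), with a 95% interval of -0.13 to 5.33 in the fit with the block. The other Lox probe had the same order in set 2, with -4.46, -4.50, -0.29 and -3.09.

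Smaller differences went in the same direction in both sets. Nid1 was higher with Ecrg4(71-132) than with Fc by 0.31 and 0.82, with a 95% interval of -0.00 to 1.13. Thbs1 was higher by 0.05 and 0.90, with an interval of -0.12 to 1.08. Fn1 was higher by 0.21 and 0.12, with an interval of -0.01 to 0.34. Fstl1 was higher by 0.16 and 0.40, and Loxl2 by 0.16 and 0.20. None of the 5 passed. In all, 13 members were higher within both sets, or 39.4%, where 28% of all genes were, and 10 were lower within both, or 30.3%, where 35.7% of all genes were.

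**Figure D5:**
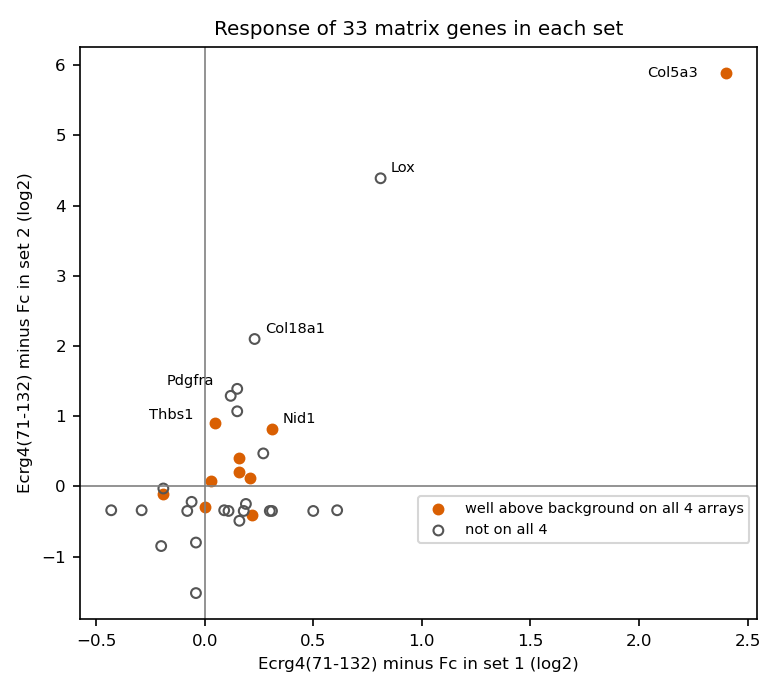
Ecrg4(71-132) minus Fc in log2 signal in set 1 (horizontal) and in set 2 (vertical) for the 33 tested matrix genes, filled where all 4 arrays were well above background. Col5a3 stands alone at the upper right (2.40 and 5.89), Lox is next (0.81 and 4.39), and most genes lie near 0 in both sets.

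In set 2 alone, 6 members were over 2-fold higher with Ecrg4(71-132) than with Fc, against 4.26% of all genes. They were Col18a1, Col4a2, Col5a1, Col5a3, Lox and Pdgfra. All but Col5a3 lacked a well above background signal on the Fc array of set 2. Col18a1 differed by 2.10 there and by 0.23 in set 1, and Pdgfra by 1.39 and 0.15. Pdgfrb, outside the test, was -0.95 with Ecrg4(71-132) in set 2, well above background, and -4.40, -6.00 and -6.18 with PBS, Fc and Ecrg4(133-148).

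Ecrg4(133-148) was compared with the same Fc arrays, so both fragment comparisons share them. No member and no gene passed (0% of genes), and 83 genes, or 0.411%, had an unadjusted p under 0.05, none of them a member. Col5a3 was higher by 0.75 in set 1 and 1.79 in set 2, with a mean of 1.27 (SE 1.07, adjusted p = 1) and a 95% interval of -1.63 to 4.16 with the block. Lox differed by -0.38 in set 1 and by 1.51 in set 2. In set 1, 28 members were lower than with Fc, where 47.5% of all genes were, and in set 2, 20 were higher, where 44.4% were. No member was over 2-fold higher within both sets, and 0.0544% of all genes were.

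The fragments were compared with each other at their shared dose and time. No member and no gene passed (0%), and 133 genes, or 0.658%, had an unadjusted p under 0.05, Col5a3 among them. Col5a3 was higher with Ecrg4(71-132) by 1.65 in set 1 and 4.10 in set 2, with a mean of 2.88 (SE 1.07, adjusted p = 1) and a 95% interval of -0.02 to 5.77 with the block. Lox was higher by 1.19 and 2.88, with an interval of -0.69 to 4.76. Col5a3 and Lox were the 2 members over 2-fold higher within both sets, as were 0.396% of all genes. Col5a1 was higher by 0.66 and 1.89, with an interval of 0.39 to 2.16. It did not pass (adjusted p = 0.754 by limma with the block), and its set 2 array with Ecrg4(133-148) was not well above background. In set 1, 1 member, Col11a1, was lower with Ecrg4(71-132) than with Ecrg4(133-148), where 56.1% of all genes were. In set 2, 13 members were higher, where 46.9% of all genes were.

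Fc was compared with PBS to see what the carrier alone did. No member and no gene passed (0%), and 45 genes, or 0.223%, had an unadjusted p under 0.05, none of them a member. The median member difference was -0.58 within set 1 and 0.34 within set 2, against 0.05 and 0.01 for all genes. The set 2 median rests on dim signals. Col8a1, Lum and Thbs2, dim on all set 2 arrays, differed there by 0.41, 0.42 and 0.41, and each by 0.01 with quantile normalization. The 10 members well above background throughout set 2 went both ways there, from -0.29 for Col1a2 to 0.78 for Col5a3. In set 2, 25 members were higher with Fc, against 53.8% of all genes, many of them on arrays where they were not well above background. Col5a3 differed by -0.11 and 0.78, and Lox by -0.07 and 0.14. With the set as a block the 95% interval was -3.39 to -0.21 for Col4a2 and -1.76 to -0.00 for Col5a1. Neither passed, and neither was well above background on the Fc array of set 2.

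Outside the matrix genes, the 5 genes whose signal followed Col5a3 most closely over the 8 arrays were named by Pearson correlation among 19999 genes. The nearest was Trem1, a receptor that amplifies inflammatory signals in myeloid cells, with r of 0.996. Its signal was 2.37, 2.44, 3.26 and 2.82 in set 1 and 2.0, 2.32, 4.52 and 2.99 in set 2. Ppfia3, which encodes the scaffold protein liprin-alpha-3, had r of 0.991, and the 3 others were probes that led to no symbol, with r of 0.989 to 0.995. The arrays share a set or a treatment, and in all 5 the Ecrg4(71-132) array of set 2 was the highest, so these values are a description.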

How the data were processed

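The labels' protocols describe total RNA labelled with Cy3 by Agilent's one-colour kit. The authors deposited scanner files with spot intensities from which the local background was subtracted. The submitters' processing notes name Agilent Feature Extraction 11.0.1.1. The authors' deposited table holds log2 values that followed log2 of these intensities minus 1 constant per array (correlation 1.0000, column medians -4.48 to -4.21). The choice of that constant is not stated in the sources used, but the 75th percentile of each deposited column was -0.00. The deposited table is therefore close to the scaling used here.

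Each array's log2 intensities were set against its 75th percentile, taken over spots that are no controls. Spots of a probe were averaged and outlying spots left out, which dropped 104 of 55681 probes. Probes were named by RefSeq accession (27972), and the others kept the files' name (27605). The array was designed on another build than the GRCm38.p6 table used for names and promoters, so no probe coordinates are given. A probe was kept if it was well above background in both replicates of a treatment or throughout a set (26709 probes), and the brightest probe stood for each of 20211 genes. "At least" folds set the mean of set 1 against, per set 2 array, the higher of the lowest signal well above background and the probe's own.

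The 8 arrays entered fits of limma 3.58.1 (R 4.3.3), with a mean for each treatment and 4 residual degrees of freedom for treatments, and with treatment and set (3 residual degrees of freedom) for the sets. Benjamini-Hochberg adjustment ran over all genes, with a threshold of 0.05, and the fits were tested on simulated data. The titles call the replicate numbers sets, and the set differences of the treatments correlated at 0.861 to 0.904 across genes in the 6 treatment pairs. Sets were therefore taken as pairs in the fits with a block.

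The members and lists were chosen with earlier results of these data known. All members could be named. Of each other list the 2 brightest genes and the one with the largest set difference were named, with marker genes not well above background added after their values were seen. Alternatives covered background correction, scaling, filters, probe rules, moderation, the deposited table, the block and each array left out.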

Additional observations from a re-analysis of the deposited data

Results flagged for a closer look

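Among 43 groups of 4 arrays, 2 held an array far from the other 3, and chance alone marks about 1 in 20 such groups. Sparc on the set 2 array with Ecrg4(133-148) stood at 1.44, where the nearest of the other 3 was -1.14. That gap was 0.862 of the range of the group. Thbs1 on the set 1 array with Ecrg4(133-148) stood at 3.54, where the nearest was 3.89, a gap of 0.873 of the range.

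Some probes outside the tests had a signal above that of the PBS and Fc arrays. Pdgfrb stood at -0.95 on the set 2 array with Ecrg4(71-132), and the highest of its PBS and Fc values was -4.40. A Nid1 probe that was too dim for testing stood at -2.96 with Ecrg4(71-132) and at -3.53 with Ecrg4(133-148) in set 2, where the highest PBS or Fc value was -4.60. The brightest Nid1 probe had the same order in set 2, with 3.16, 2.71 and at most 2.34. These probes have 1 array for each treatment in a set, and no test was made.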

How the results depend on the processing

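Between the sets, all 28 members called kept their direction under every alternative in which they were tested, and only Eln lost its call. Of these, the 13 kept by the set rule alone had their direction fixed. The median member difference of -3.17 became -1.24 with normexp background correction, -0.72 with probes well above background on all 8 arrays (9 of 11 members called) and -2.14 with the treatment rule alone, added after seeing the data (15 of 20 called). Without a filter 18666 of 36754 genes were called. The uncalled set differences of 3 genes changed sign: Lox was 0.09 with normexp and ran from -1.23 to 0.03 with 1 array left out, Bgn was -0.00 with median scaling, and Col5a3 ran from -0.35 to 1.11.

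Each array left out in turn, without the block, leaves means over different sets. The median member difference then ran from -1.59 to 1.69 for Ecrg4(71-132) minus Fc, from -1.69 to 1.46 for Ecrg4(133-148) minus Fc, from -1.42 to 1.84 between the fragments and from -2.17 to 1.82 for Fc minus PBS. Uncalled differences of single members changed sign too. Nid1 ran from -0.28 to 1.41, -0.43 to 0.96, -0.55 to 1.14 and -0.74 to 0.43 in these 4 comparisons, in the same order. Lox ran from -0.33 to 1.46 for Ecrg4(133-148) minus Fc and from -0.97 to 1.04 for Fc minus PBS, and Col5a3 from -0.31 to 0.98 for Fc minus PBS. Col5a3 stayed above 0 for Ecrg4(71-132) minus Fc, from 2.42 to 5.87, with or without the block. With the set as a replicate block, 0 members were called in any treatment comparison, as without it, and the pairing changed no call. With the block and an array left out, added after seeing the data, the median for Ecrg4(133-148) minus Fc was -0.47 without its set 2 array, Lox ran from -0.31 to 1.44 there and from -0.98 to 1.05 (-0.84 without Fc of set 1) for Fc minus PBS, where Col5a3 ran from -0.87 to 1.53 and Nid1 from -0.44 to 0.13.

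The number of arrays limits the precision, and 14 genes have only a bound in set 2.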

Other observations

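Col14a1, Pi16 and Cspg4 differed between the sets like the fibroblast matrix genes but did not share their order of treatments within set 1. Col14a1 was 1.72, 1.81, 1.75 and 1.86 in set 1, in the order PBS, Fc, Ecrg4(71-132) and Ecrg4(133-148), with a measured difference of -4.94 between the sets, where it was well above background on 2 of the 4 set 2 arrays. Pi16, which encodes a peptidase inhibitor of some fibroblasts, was 1.76, 1.84, 1.82 and 1.68 in set 1, with a difference of -4.77 (SE 0.07). Cspg4, which encodes the NG2 proteoglycan of pericytes and oligodendrocyte progenitors, was 2.54, 2.58, 2.60 and 2.69, with a difference of -2.43 (SE 0.08). Their set 1 values spanned less than those of Mgp, which were 2.08, 1.55, 1.48 and 1.03, and of Tagln, which encodes a smooth muscle actin-binding protein, at 4.24, 3.56, 3.80 and 3.26. These 3 genes were singled out after their values were seen, and no test was made of the contrast.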
